A study of Mus musculus with 3 samples.

Results

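The genes described here are 37 integrin subunits, laminin chains and other extracellular matrix ligands and receptors, and the question was whether Twist1 binding regions lie near the same members of this group in 3 tissues. The list was made by gene name at a time when earlier results of these data were known, and holds 12 integrin alpha subunits, 8 integrin beta subunits, 9 laminin chains and 8 other genes, out of 22238 protein-coding genes in the annotation. A peak was assigned to a member when the deposited list named that gene as the neighbour at lower or higher coordinates at a distance of 0 to 50000 bp. This gave 150 of the 67468 peaks, with 25 of 10965 in endocardial cushions (ECCs), 110 of 48965 in limb buds and 15 of 7538 in peripheral nerve sheath tumor (PNST) cells.

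The peaks came from ChIP with an anti-Twist1 antibody followed by sequencing, which reports where a protein was cross-linked to DNA. The ECC sample was atrioventricular canal cushion tissue from E12.5 wild-type FVB/N mouse embryos, the limb sample was forelimb bud tissue from E10.5 embryos of the same strain, and the PNST sample was a cultured mouse tumor cell line, also labelled FVB/N, grown with serum. Tissue of several litters or cells of several plates were pooled into 1 sample per tissue, so no tissue had a replicate and no difference between tissues was tested. Each list was called on its own sample, with 3149934 ECC tags (mapped reads kept after removal of duplicates), 14893391 limb bud tags and 11823220 PNST tags. The tag and peak totals of the deposited ECC, limb bud and PNST lists are not those described in the study's text. Each deposited list holds more peaks than the text gives, and the limb bud list differs most in both totals. Any of the lists may therefore come from another run or peak call, and each value here rests on the deposited lists. The lists hold no expression values with which the cell types could be checked. In pooled tissue, occupancy of a site in fewer cells and weaker occupancy in each cell cannot be told apart.

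Integrins are receptors made of 1 alpha and 1 beta subunit that link the matrix outside a cell to actin inside it. Laminins are trimers of alpha, beta and gamma chains that form the basement membrane, the sheet to which integrins and dystroglycan bind. Mesenchymal cells of the cushions and limb buds move through matrix that holds fibronectin and hyaluronan, and Twist1 is a bHLH factor known for binding E-boxes (5′-CANNTG-3′) in cells that migrate.

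Of the 150 member peaks, only those at 3 places overlapped in all 3 tissues, and these were in introns of Lama1, Cd44 and Itga9. The sequences of Cd44 and Itga9 are given here because they are common regions of the group, as read from the mm9 plus strand, in lower case with each E-box in capitals.
Cd44 intron 10, ECC peak, chr2:102669498-102669637: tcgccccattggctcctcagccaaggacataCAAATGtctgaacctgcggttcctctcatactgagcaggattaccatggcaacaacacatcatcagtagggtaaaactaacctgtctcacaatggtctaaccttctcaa
Itga9 intron 11, ECC peak, chr9:118584069-118584268: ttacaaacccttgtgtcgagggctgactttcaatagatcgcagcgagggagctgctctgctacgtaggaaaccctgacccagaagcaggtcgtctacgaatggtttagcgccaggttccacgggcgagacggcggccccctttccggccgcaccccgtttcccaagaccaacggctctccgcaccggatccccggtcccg
The Cd44 sequence holds 1 E-box, CAAATG, and the Itga9 sequence holds none.

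A further 4 sequences were chosen after their values were seen, because they show what other member peaks consist of. The first pair is a shared stretch near different genes on chromosome 9.
Itga11 intron 2, ECC peak, chr9:62574089-62574226: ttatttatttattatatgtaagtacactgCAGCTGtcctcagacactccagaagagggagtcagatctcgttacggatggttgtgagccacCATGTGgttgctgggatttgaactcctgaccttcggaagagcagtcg
Dag1, 24.0 Kb upstream, ECC peak, chr9:108190165-108190290: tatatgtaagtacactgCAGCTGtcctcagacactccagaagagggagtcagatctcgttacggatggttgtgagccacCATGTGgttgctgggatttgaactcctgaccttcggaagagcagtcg
All 126 bases of the Dag1 peak are also in the Itga11 peak, 126 of 126 aligned bases being identical. Every 50-base stretch in both peaks occurs more than once in mm9, with a median of 783 copies for the Itga11 peak and 797 for the Dag1 peak. A 50-base read from inside this stretch could come from either place. The second pair is mostly or wholly sequence that occurs once in the genome.
Podxl, 32.2 Kb upstream, limb bud peak, chr6:31546155-31546313: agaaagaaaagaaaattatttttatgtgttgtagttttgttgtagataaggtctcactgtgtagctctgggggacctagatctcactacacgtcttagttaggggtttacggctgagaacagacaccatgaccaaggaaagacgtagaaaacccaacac
Itga7 intron 1, ECC peak, chr10:128371602-128371764: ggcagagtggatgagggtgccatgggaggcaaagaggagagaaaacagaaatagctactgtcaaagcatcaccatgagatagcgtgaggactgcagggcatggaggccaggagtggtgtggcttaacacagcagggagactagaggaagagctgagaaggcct
The Podxl peak has 20% of its 50-mers repeated and the Itga7 peak has 0%, and neither holds an E-box.

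The presence of peaks was compared with all protein-coding genes. In ECCs 18 of 37 members (48.6%, Wilson 95% interval 33.4 to 64.1) had 1 or more peaks, against 22.5% of all genes. In limb buds 32 members (86.5%, 72.0 to 94.1) had a peak, against 53.9%. In PNST cells 10 members (27.0%, 15.4 to 43.0) had a peak, against 14.6%. The share of members was above that of all genes in each list, and in each the interval, which covers counting error only, lay above the value of all genes. As the members were listed with earlier results of these data known, the intervals describe this list and test nothing. Gene length was not held in these shares.

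The members are long genes, and a long gene offers more exon starts near a peak. The median gene body was 80.8 Kb for the members and 15.4 Kb for all genes, and 15 members were 100 Kb or longer against 10.8% of all genes. Among these 15 long genes, 12 had an ECC peak (80%, 54.8 to 93.0, against 50.7% of all genes of that length), 15 a limb bud peak (100%, 79.6 to 100, against 90.1%) and 7 a PNST peak (46.7%, 24.8 to 69.9, against 38.1%). Among the 22 shorter members, 6 had an ECC peak (27.3%, 13.2 to 48.2, against 19.1%), 17 a limb bud peak (77.3%, 56.6 to 89.9, against 49.6%) and 3 a PNST peak (13.6%, 4.75 to 33.3, against 11.8%). Peaks in all 3 tissues were listed for 7 of the long members (46.7%, 24.8 to 69.9, against 25.1%) and 2 of the shorter ones (9.09%, 2.53 to 27.8, against 4.32%). Within length classes, the interval of the members held the share of all genes in PNST cells in both classes, in limb buds for the long genes and in ECCs for the short genes, and for peaks in all 3 tissues in both classes. Over the 37 members, the number of peaks rose with the length searched (Spearman’s rho 0.50 for ECC, 0.50 for limb bud and 0.51 for PNST peaks, Pearson’s r 0.32, 0.54 and 0.70), which is a description across genes of the same 3 libraries.

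**Figure D1:**
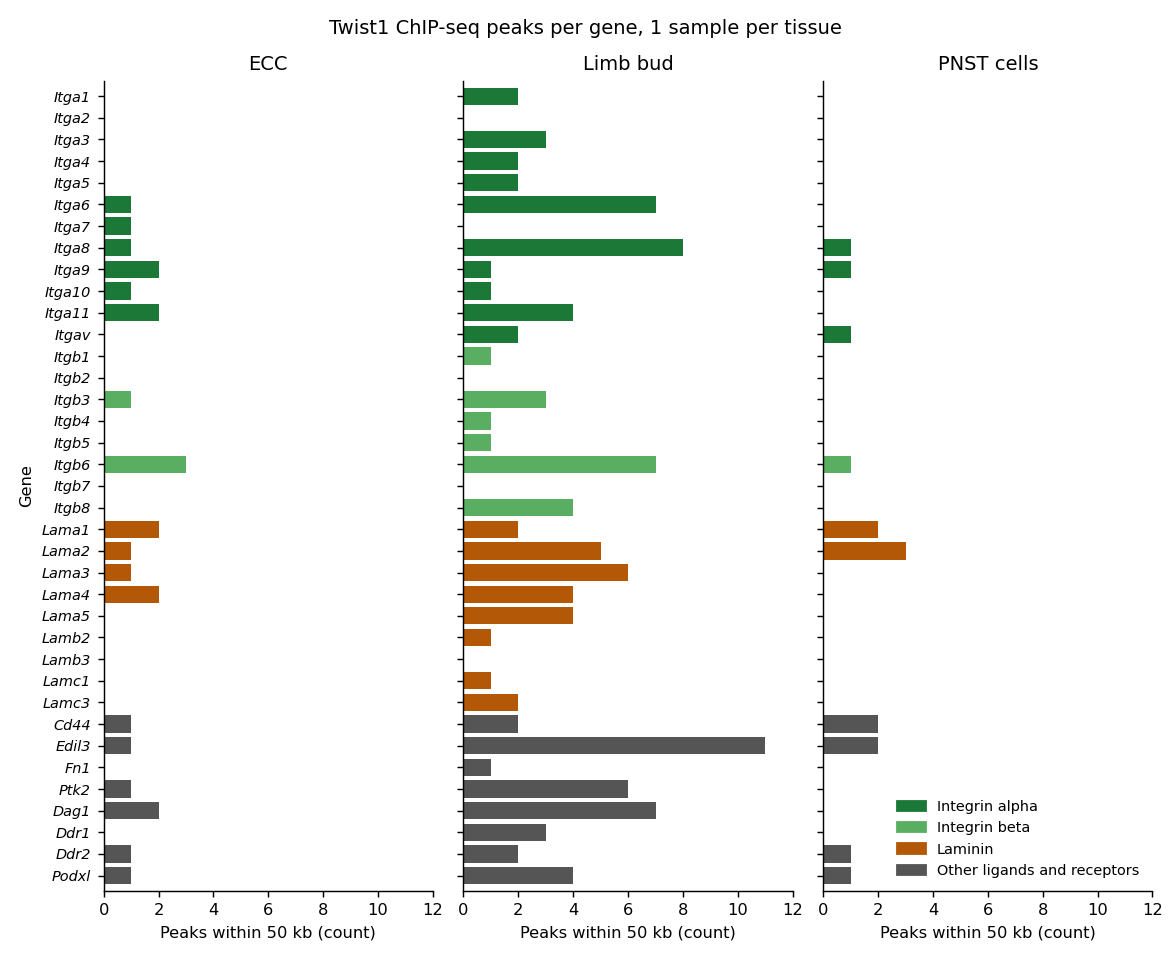
Number of Twist1 ChIP-seq peaks at a listed distance of at most 50 Kb (x axis) for each of the 37 genes (y axis) in ECCs, limb buds and PNST cells, 1 sample each, with bars coloured by gene family. Limb buds reach 11 peaks at Edil3, while no gene has more than 3 peaks in ECCs or in PNST cells, and 4 genes have no bar in any panel.

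By tissue, 9 members had peaks in all 3 lists (24.3%, 13.4 to 40.1, against 6.56% of all genes). These were Itga8, Itga9, Itgb6, Lama1, Lama2, Cd44, Edil3, Ddr2 and Podxl. Peaks in ECCs and limb buds without PNST cells were listed for 8 members (21.6%, 11.4 to 37.2, against 13% of all genes), namely Itga6, Itga10, Itga11, Itgb3, Lama3, Lama4, Ptk2 and Dag1. Limb bud peaks alone were listed for 14 members (37.8%, 24.1 to 53.9, against 28.5%), which were Itga1, Itga3, Itga4, Itga5, Itgb1, Itgb4, Itgb5, Itgb8, Lama5, Lamb2, Lamc1, Lamc3, Fn1 and Ddr1. Itgav had limb bud and PNST peaks, and Itga7 had an ECC peak alone. Itga2, Itgb2, Itgb7 and Lamb3 had no peak in any list (10.8%, 4.29 to 24.7, against 41.3%). All 4 are under 100 Kb, which makes 18.2% of the 22 shorter members (against 45.4% of such genes) and 0% of the 15 long ones (against 7.73%). Itgb2 and Itgb7 encode beta subunits of leukocyte integrins, Itga2 encodes a collagen receptor subunit, and Lamb3 encodes a chain of an epithelial laminin. Whether these roles bear on the lack of peaks was not tested.

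Depth limits how far these patterns can be read. The weakest ECC peak had 5 tags, or 1.59 tags per 1000000 filtered tags (scaled tags in the following), whereas the weakest limb bud peak had 8 tags (0.537 scaled tags) and the weakest PNST peak had 7 (0.592 scaled tags). Of the 110 limb bud member peaks, 3 reached the 1.59 scaled tags of the weakest ECC peak, and these were the peaks at Lama1, Cd44 and Itga9. Of the 15 PNST member peaks, 1 reached it, at Lama1. The other 107 limb bud peaks had fewer scaled tags than any peak listed in ECCs, so that tissue and depth cannot be told apart for the 14 members with limb bud peaks alone. The member peaks made up 0.228% of the ECC list, 0.225% of the limb bud list and 0.199% of the PNST list, so that their numbers differed between tissues about as the lengths of the lists did.

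With only peaks of a fold enrichment of 20 or more, 16 members had an ECC peak (43.2%, against 18.9% of all genes), 18 a limb bud peak (48.6%, against 12.2%) and 5 a PNST peak (13.5%, against 2.87%). This limit kept 8056 of the 10965 ECC peaks but 4948 of the 48965 limb bud peaks and 1064 of the 7538 PNST peaks. The shares under this limit were not split by gene length, and the members are longer than most genes. The 5 members in the PNST list, Itga8, Itga9, Lama1, Cd44 and Podxl, also had such a peak in the other lists. Members that passed with ECC and limb bud peaks but no PNST peak at this limit were Itga6, Itga10, Itga11, Itgb6, Lama2, Lama3, Lama4 and Ptk2. Of these, Itgb6 and Lama2 had PNST peaks below the limit. As 2.87% of all genes kept a PNST peak, lacking one was the usual outcome. The share of all genes with this pattern was not counted.

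Most member peaks were as weak as other peaks near genes. The median was 6 ECC tags, 9 limb bud tags and 8 PNST tags, the same as over all peaks within 50 Kb of a gene. The fold enrichment, by which MACS sets the summit against its surroundings, had a median of 28.9 over the 25 ECC member peaks against 27.6 over 6012 ECC peaks near genes. It was 15.7 against 14.5 in limb buds and 18 against 15.2 in PNST cells. The fold enrichment of member peaks ranged from 15.6 to 115 for ECCs, from 8.77 to 65.2 for limb buds and from 9.09 to 78.9 for PNST cells.

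**Figure D2:**
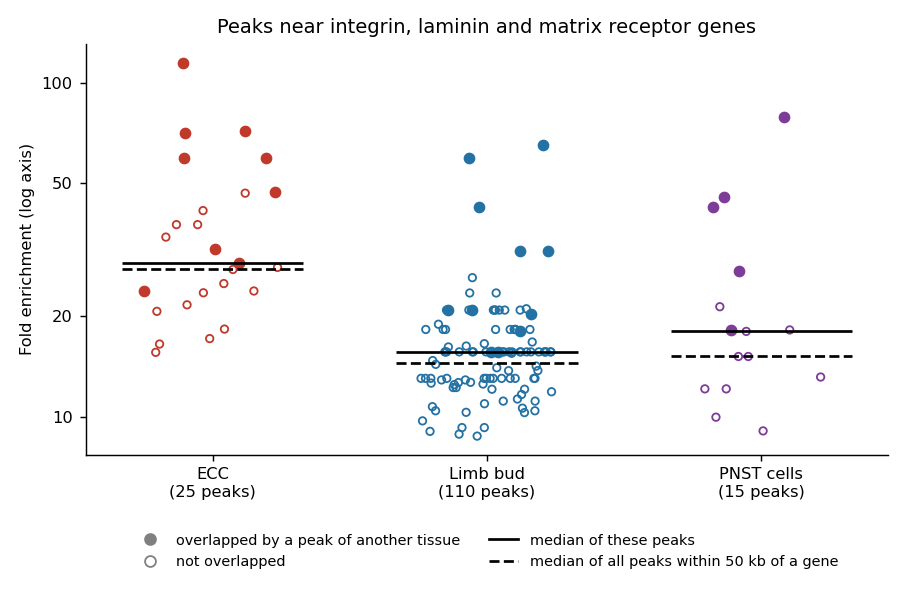
Fold enrichment (y axis, log scale) of each member peak in the 3 samples, with filled circles for peaks overlapped by a peak of another tissue, a solid line at the median of the member peaks and a dashed line at the median of all peaks within 50 Kb of a gene. The highest circles in each tissue are filled, while most circles lie near a pair of medians that differ little (28.9 and 27.6 in ECCs).

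The overlap of member peaks between tissues was examined next, with a peak counted as overlapped when at least 5% of its length was covered by a peak of the other list. Of 25 ECC member peaks, 9 (36%, 20.2 to 55.5) were overlapped by a limb bud peak, against 33% of all ECC peaks near genes, and 3 (12%, 4.17 to 30) by a PNST peak, against 6.37%. Of 110 limb bud member peaks, 9 (8.18%, 4.36 to 14.8) were overlapped by an ECC peak, against 7.84%, and 5 (4.55%, 1.96 to 10.2) by a PNST peak, against 2.67%. Of 15 PNST member peaks, 3 (20%, 7.05 to 45.2) were overlapped by an ECC peak, against 11%, and 5 (33.3%, 15.2 to 58.3) by a limb bud peak, against 19%. All 6 intervals held the share of all peaks near genes. Peaks of both other tissues overlapped 3 member peaks in each list (12%, 2.73% and 20%, against 5.44%, 1.31% and 9.58%). No overlap with another tissue was found for 16 ECC, 99 limb bud and 10 PNST member peaks (64%, 90% and 66.7%, against 66.1%, 90.8% and 79.6% of all peaks near genes). The 9 members with peaks in all 3 tissues therefore differ from the 3 with a region common to all 3, since at Itga8, Itgb6, Lama2, Edil3, Ddr2 and Podxl no position was covered in every list.

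The 25 peaks that overlapped another tissue fell into 11 regions, of which 3 were found in all 3 tissues, 6 in ECCs and limb buds, and 2 in limb buds and PNST cells. None was found in ECCs and PNST cells alone.

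**Figure D3:**
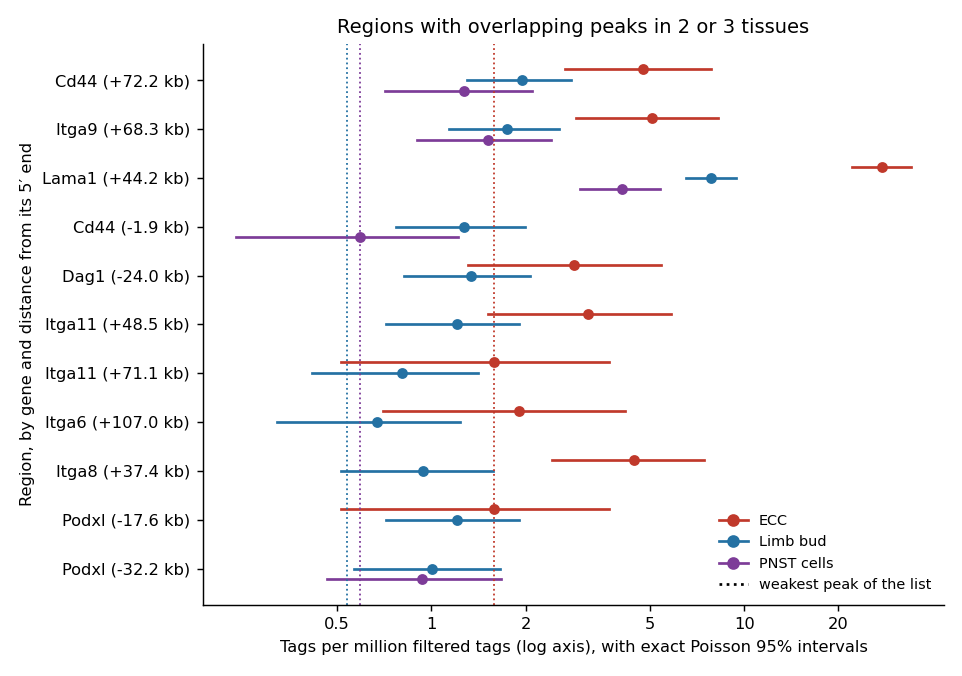
Tags per 1000000 filtered tags (x axis, log scale) at the 11 regions where member peaks of 2 or 3 tissues overlap, each named by its gene and the distance of the summit from the 5′ end (y axis). Bars are exact Poisson 95% intervals and cover counting error only, and dotted lines mark the weakest peak of each list. The ECC value lies to the right at each region with an ECC peak. Outside Lama1, Cd44 and Itga9 this was fixed in advance, as the limb bud values lie below the weakest listed ECC peak. The PNST values at Cd44 and Itga9 also lie below it. The Lama1 intervals are the only set of 3 that do not overlap.

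Lama1 encodes the laminin alpha 1 chain, which is found in early basement membranes. Its intron 5 region (44.2 Kb from the 5′ end) held 87 ECC tags, 117 limb bud tags and 48 PNST tags. In each list this peak was a tandem repeat, with at least 80% of bases equal to the base 1 to 10 positions before. In scaled tags the region had 27.6 (exact Poisson 95% interval 22.1 to 34.1), 7.86 (6.50 to 9.42) and 4.06 (2.99 to 5.38), highest in ECCs and lowest in PNST cells with intervals that did not overlap, and it was the member peak with the most tags in each list. The fold enrichment was 71.7, 59.5 and 78.9 and did not follow that order. In scaled tags the medians over all member peaks (1.90, 0.604 and 0.677) were also highest in ECCs. The place of ECCs was therefore not particular to Lama1.

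Cd44, the receptor for hyaluronan, had its common region in intron 10 (chr2:102669445-102669637), 72.2 Kb from the 5′ end. It held 15 ECC tags, 29 limb bud tags and 15 PNST tags, or 4.76 (2.67 to 7.85), 1.95 (1.30 to 2.80) and 1.27 (0.710 to 2.09) scaled tags. The fold enrichment of 115 in ECCs and of 65.2 in limb buds was the highest of any member peak in those lists, and in PNST cells it was 42.5. The ECC peak held 1 E-box and the slightly longer limb bud and PNST peaks held 2. Of its 50-mers 20.1% to 29.7% were repeated in mm9, and 14 other peaks of the 3 lists matched its sequence. The match with the most tags was a region of chromosome 9 with 112 ECC, 232 limb bud and 125 PNST tags, 96.6% identical over 87 of the 140 bases.

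A second Cd44 region, 1.9 Kb upstream of the gene (chr2:102743593-102743810), was found in limb buds with 19 tags and in PNST cells with 7. The fold enrichment was 20.9 and 18.2. In the PNST peak 94.1% of bases equalled the base 10 positions before, 100% of the 50-mers were repeated, and neither peak held an E-box. The primer pair that the study lists for ChIP-qPCR at Cd44 matched mm9 once for each primer, at chr2:102509590-102509727. This 138 bp product lies in intron 1 of Slc1a2, which encodes a glutamate transporter, 142 Kb below the lower end of Cd44. The nearest deposited peak was 160 Kb away in ECCs and PNST cells and 59.8 Kb away in limb buds. No deposited peak near Cd44 was therefore covered by the product. By ChIP-qPCR the study found Twist1 at a PNST-specific Cd44 region in PNST cells and not in the other tissues. At the shared Cd44 site it detected none. Which of these regions the listed pair addressed was not determined here.

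Itga9 encodes the alpha 9 integrin subunit, a receptor for tenascin and related ligands. Its common region lay in intron 11 (chr9:118583994-118584268, 68.3 Kb from the 5′ end) and held 16 ECC tags, 26 limb bud tags and 18 PNST tags. In scaled tags this was 5.08 (2.90 to 8.25), 1.75 (1.14 to 2.56) and 1.52 (0.902 to 2.41). The ECC interval lay above those of limb buds and PNST cells, which overlapped each other. The medians over all member peaks (1.90, 0.604 and 0.677) were also highest in ECCs, so this order was not particular to Itga9. The fold enrichment was 59.5, 42.5 and 45.5. Between 6.73% and 9.27% of the 50-mers were repeated, among the lowest shares of any member peak. The sequence matched 20 other peaks of the lists, and 189 of its 200 bases aligned with 85.7% identity to a region of chromosome 16 that had 171 ECC, 166 limb bud and 195 PNST tags. The common regions of Cd44 and Itga9 therefore resembled places with more tags elsewhere in the same lists, and the part of this likeness in the peaks was not tested.

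Among the alpha subunits, 6 of 12 had an ECC peak, 10 a limb bud peak and 3 a PNST peak. These shares were 50%, 83.3% and 25%, against 22.5%, 53.9% and 14.6% of all genes, not split by gene length. Itga11, the subunit of a collagen receptor of fibroblasts, had a pair of regions in both ECCs and limb buds, the only member with more than 1 such region. The intron 2 region (48.5 Kb from the 5′ end) held 10 tags in ECCs and 18 in limb buds, with a fold enrichment of 59.5 and 31.3 and 2 E-boxes in each peak, and is the sequence shared with Dag1 that is printed above. The intron 10 region (71.1 Kb) held 5 and 12 tags, with a fold enrichment of 23.8 and 20.3. It holds 3 E-boxes in the ECC peak and 4 in the limb bud peak, and each of its 50-mers was repeated, with a median of 7 copies. Limb buds had a further peak in introns 6 and 18 each.

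Itga8, the partner of the beta 1 subunit in a receptor that binds nephronectin, had 8 limb bud peaks, the second highest number of the group, with 1 peak in ECCs and 1 in PNST cells. The ECC peak in intron 3 (14 tags, fold enrichment 31.8) overlapped a limb bud peak of 14 tags (20.9). In scaled tags the ECC value was 4.44 (2.43 to 7.46) and the limb bud value 0.940 (0.514 to 1.58), which do not overlap. This limb bud value lies below the 1.59 scaled tags of the weakest listed ECC peak, so the order was fixed by that limit. This region repeats a 6-base unit, with 93.8% of the bases of the limb bud peak equal to the base 6 positions before, and matched 909 other peaks, 268 of them in ECCs and 636 in limb buds. The PNST peak lay outside the gene, 225 Kb from the 5′ end, with 8 tags.

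Itga6, a laminin receptor subunit, had 7 limb bud peaks, all inside the gene span, and 1 ECC peak. The overlapping pair in intron 25 held 6 tags in ECCs and 10 in limb buds, with a fold enrichment of 47.0 and 15.7, and no E-box. The remaining 6 limb bud peaks of Itga6 had 8 to 10 tags. Itga10, another collagen receptor subunit, had 1 peak of 5 tags in ECCs and 1 of 8 tags in limb buds, separated by 111 bp and so not counted as overlapping, both with summits outside the gene in an exon annotated to Rpl21-ps11, a name given to ribosomal protein pseudogenes. Itga7, a laminin receptor subunit of muscle, had the only member peak with a summit within 1 Kb of a 5′ end. That peak lay 0.772 Kb into the gene in intron 1, with 5 tags in ECCs, a fold enrichment of 20.7 and no repeated 50-mer, and no other peak in the 3 lists matched its sequence.

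The other alpha subunits had peaks without overlap. Itgav, which pairs with several beta subunits and binds fibronectin and vitronectin, had 2 limb bud peaks of 17 and 8 tags, 44.7 and 38.1 Kb upstream, and 1 PNST peak of 8 tags 4.02 Kb upstream. Itga1, Itga4 and Itga5 had 2 limb bud peaks each and Itga3 had 3, and these 9 peaks held 8 to 12 tags. Itga4 and Itga5 encode fibronectin receptor subunits, Itga1 a collagen receptor subunit and Itga3 a laminin receptor subunit. The second Itga9 peak in ECCs, in intron 1, held 5 tags.

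Among the beta subunits, 2 of 8 had an ECC peak, 6 a limb bud peak and 1 a PNST peak, and no peak of this family overlapped between tissues. Itgb6, which with alpha v activates latent TGF-beta in epithelia, had 3 ECC peaks, the most of any member there. It was the only member with 3 or more (2.70% of the 37, 0.479 to 13.8, against 1.74% of all genes), and the interval held the share of all genes. All 3 peaks lay beyond the 3′ end of the gene, 138 to 161 Kb from the 5′ end. They had 5 to 8 tags and a fold enrichment of 18.3, 41.4 and 46.7. In limb buds Itgb6 had 7 peaks of 8 to 15 tags, 5 of them in introns, and in PNST cells 1 peak of 8 tags 2.87 Kb upstream. Itgb3, the beta subunit of the vitronectin receptor, had 1 ECC peak of 5 tags and 3 limb bud peaks, the largest with 20 tags in intron 10 and a fold enrichment of 13.8.

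Itgb8 had 4 limb bud peaks of 8 tags, all outside the gene. Itgb1, the partner of most alpha subunits, had 1 limb bud peak of 8 tags beyond its 3′ end. Itgb4, the hemidesmosome subunit, and Itgb5 had 1 intronic limb bud peak of 8 tags each. These 7 peaks had the smallest number of tags found in the limb bud list.

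**Figure D4:**
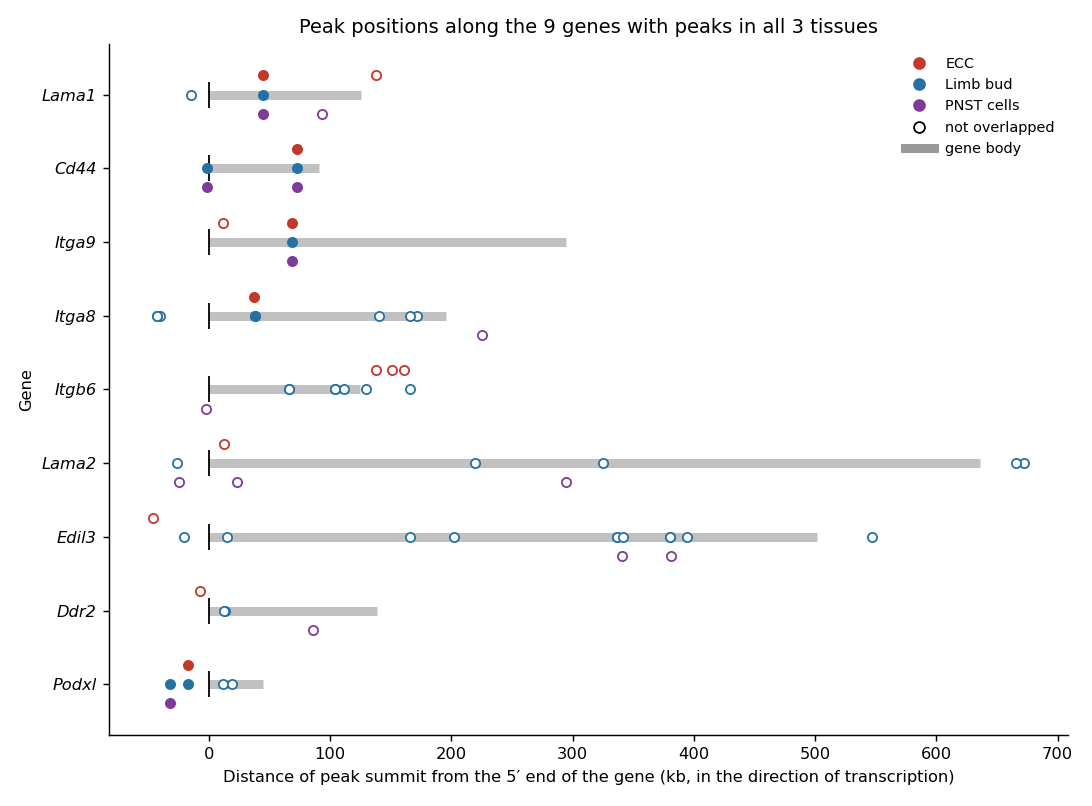
Distance of peak summits from the 5′ end (x axis, Kb in the direction of transcription) for the 9 genes with peaks in all 3 tissues (y axis), with the gene body as a grey bar, circles coloured by tissue and filled where a peak of another tissue overlaps. Circles of 3 colours line up at Lama1, Cd44 and Itga9 only, and at Edil3 the peaks lie along 502 Kb of gene without lining up.

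Of the 9 laminin chains, 4 had an ECC peak, 8 a limb bud peak and 2 a PNST peak. These shares were 44.4%, 88.9% and 22.2%, against 22.5%, 53.9% and 14.6% of all genes, not split by gene length. Besides its intron 5 region, Lama1 had 1 peak in each tissue that did not overlap, with 8 ECC, 13 limb bud and 7 PNST tags. Lama2, the alpha chain of muscle and peripheral nerve basement membrane, is the longest member with 636 Kb. It had 3 peaks in PNST cells, the most of any member there, with 7 tags each. Lama2 was the only member with 3 or more (2.70% of the 37, 0.479 to 13.8, against 0.814% of all genes), and the interval held the share of all genes. Its PNST peaks lay in introns 1 and 12 and 24.6 Kb upstream, its ECC peak of 7 tags in intron 1 with a fold enrichment of 37.6 and 4 E-boxes, and its 5 limb bud peaks of 8 to 14 tags overlapped none of these. A further 2 limb bud peaks inside Lama2 lay over 50000 bp from the exon start on either side and were not counted.

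Lama3, an alpha chain of epithelial laminins, had 1 ECC peak of 5 tags with a fold enrichment of 37.6 and 6 limb bud peaks of 8 to 16 tags. Lama4, the alpha chain of blood vessels, had 2 ECC peaks of 5 tags and 4 limb bud peaks of 8 to 17 tags. The ECC peak 8.36 Kb upstream of Lama4 lay between 2 limb bud peaks, 13 bp from one and 34 bp from the other, and overlapped neither. Lama5, a widely expressed alpha chain, had 4 limb bud peaks of 8 to 11 tags, all 16.5 to 30.4 Kb upstream. Lamb2 and Lamc1 had 1 limb bud peak each, of 9 and 10 tags, and Lamc3 had 2, of 13 and 9 tags.

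The other 8 genes included 6 with an ECC peak, 8 with a limb bud peak and 4 with a PNST peak. These shares were 75%, 100% and 50%, against 22.5%, 53.9% and 14.6% of all genes, not split by gene length. Edil3, a secreted ligand of integrin alpha v beta 3, had 11 limb bud peaks, the most of any member. These held 8 to 14 tags with a fold enrichment of 12.3 to 20.9, and 9 of them lay inside the gene. In all, 16 members (43.2%, against 19% of all genes) had 3 or more limb bud peaks. The ECC peak of Edil3, 46.2 Kb upstream, held 6 tags, and the PNST peaks in introns 6 and 9 held 10 and 7. The PNST peaks were 267 to 758 bp from limb bud peaks and overlapped none. Fn1, the fibronectin gene, had a single limb bud peak of 9 tags 11.4 Kb upstream, a 6-base repeat.

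Dag1 encodes dystroglycan, a laminin receptor that does not belong to the integrins. It had 2 ECC and 7 limb bud peaks, and the region 24.0 Kb upstream held 9 tags in ECCs and 20 in limb buds, with a fold enrichment of 70.5 and 15.7. The other Dag1 peaks had 5 tags in ECCs and 8 to 12 in limb buds. Podxl, which encodes podocalyxin, a sialomucin of the cell surface, had its region 32.2 Kb upstream in limb buds and PNST cells (chr6:31546112-31546313). It held 15 and 11 tags, or 1.01 (0.564 to 1.66) and 0.930 (0.464 to 1.66) scaled tags, with a fold enrichment of 31.3 and 27.3, values that did not differ beyond counting error. It had 20% and 23.4% of its 50-mers repeated, and 1 other peak of the lists matched its sequence. The Podxl region 17.6 Kb upstream, in ECCs with 5 tags and limb buds with 18, was a 6-base repeat in the ECC peak, where 99.2% of bases equalled the base 6 positions before. In the longer limb bud peak this share was 73.8%.

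Ptk2, which encodes focal adhesion kinase, had 1 ECC peak of 8 tags in intron 27 and 6 limb bud peaks of 8 to 13 tags, the nearest 811 bp from the ECC peak. Ddr2, a receptor tyrosine kinase for fibrillar collagen, had 1 ECC peak of 9 tags 7.54 Kb upstream, 2 limb bud peaks in intron 1 of 9 and 10 tags and 1 PNST peak in intron 3 of 9 tags, all at different positions. Ddr1, the related collagen receptor of epithelia, had 3 limb bud peaks of 9 to 14 tags outside the gene.

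By position, 13 of 25 ECC, 51 of 110 limb bud and 9 of 15 PNST member peaks had their summit in an intron of a member, and 11, 54 and 6 were outside all coding transcripts. No summit fell in a coding exon of a member, and 1, of a limb bud peak at Itga4, fell in a UTR. The summit was within 5000 bp of the 5′ end of the member for 1 ECC, 2 limb bud and 3 PNST peaks. Positions were not counted for all peaks near genes, and the members are longer than most genes. Whether these positions differ from those of other peaks was therefore not determined.

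E-boxes were counted on the sequence of each peak. CANNTG, which reads the same on both strands, was present in 13 of 25 ECC member peaks (52%, 33.5 to 70.0, against 53% of all ECC peaks near genes), in 62 of 110 limb bud peaks (56.4%, 47.0 to 65.3, against 55.6%) and in 8 of 15 PNST peaks (53.3%, 30.1 to 75.2, against 51.8%). Of all 150 bp windows of the mm9 genome, 54.8% hold this motif. Within 50 bp of the summit, 12 ECC, 48 limb bud and 4 PNST member peaks had an E-box (48%, 43.6% and 26.7%, against 37.3%, 40% and 39.5% of all peaks near genes and 41.0% of 101 bp windows). The shares of member peaks with an E-box differed from those of all peaks by less than the counting error. Of the 3 common regions, only that of Cd44 had any.

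Most member peaks held repeated sequence, as did most peaks near genes. At least 50% of the 50-mers were repeated in mm9 in 18 of 25 ECC peaks (72%, 52.4 to 85.7, against 85.1%), 97 of 110 limb bud peaks (88.2%, 80.8 to 93.0, against 92.5%) and 10 of 15 PNST peaks (66.7%, 41.7 to 84.8, against 87.1%). A tandem repeat, with at least 80% of bases equal to the base 1 to 10 positions before, made up 4 ECC peaks (16%, against 8.42%), 9 limb bud peaks (8.18%, against 4.69%) and 2 PNST peaks (13.3%, against 4.63%). With peaks of mostly repeated 50-mers left out, 6 members kept an ECC peak (16.2%, against 4.35% of all genes), 13 a limb bud peak (35.1%, against 9.04%) and 5 a PNST peak (13.5%, against 2.38%). These shares were not split by gene length either, and the members are longer than most genes. Lama1, Cd44 and Itga9 were the 3 members left with a peak in all tissues, while 19 of the 33 members with a peak had none left in any. Of these 19, Itga6, Itga8, Itga10, Itga11, Itgb3, Lama4, Ptk2 and Ddr2 had peaks in ECCs and limb buds before. Such a loss was not particular to the members. Under this filter the share of all genes with a peak fell from 22.5% to 4.35% in ECCs. It fell from 53.9% to 9.04% in limb buds and from 14.6% to 2.38% in PNST cells. How many of all genes lost every peak was not counted.

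**Figure D5:**
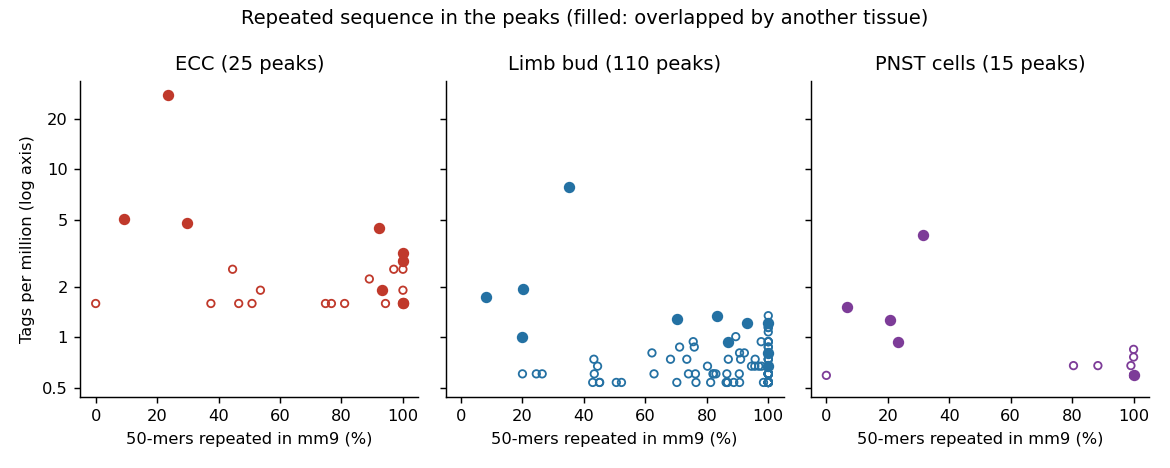
Tags per 1000000 filtered tags (y axis, log scale) against the share of 50-mers repeated in mm9 (x axis) for each member peak in the 3 samples, with filled circles for peaks overlapped by another tissue. In limb buds most circles lie at 50% or more (97 of 110), and the highest circle in each panel is the Lama1 peak at 23.5% to 35.2%.

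Other genes of the same pathways were counted in the same way, from lists made by gene name. Of 24 adaptors and kinases of focal adhesions, 7 had an ECC peak, 18 a limb bud peak and 2 a PNST peak (29.2%, 75% and 8.33%). Among them Parva, an actin-binding adaptor next to integrin-linked kinase, had 2 ECC and 9 limb bud peaks, while Tln1, Ilk, Pxn, Zyx, Git1 and Lims2 had none. Of 17 other matrix ligands, 5, 12 and 3 had a peak (29.4%, 70.6% and 17.6%). Tnr, a tenascin, had 1, 6 and 3 peaks and was the only one of these with a peak in each tissue. Of 15 other integrin subunits and matrix receptors, 7, 11 and 1 had a peak (46.7%, 73.3% and 6.67%), the one in PNST cells being Itgam, a leukocyte subunit. Of 15 genes of the dystroglycan complex and its glycosylation, 7, 12 and 4 had a peak (46.7%, 80% and 26.7%), with 33 limb bud peaks at Dmd, the dystrophin gene, which is 2257 Kb long. In limb buds the Wilson intervals of the adaptors (55.1 to 88.0) and the dystroglycan complex (54.8 to 93.0) lay above the share of all genes (53.9%), and those of the matrix ligands (46.9 to 86.7) and the other receptors (48.0 to 89.1) held it. In ECCs the intervals of the other receptors and the dystroglycan complex (both 24.8 to 69.9) lay above the share of all genes (22.5%), and the other pair held it. All 4 PNST intervals held the share of all genes (14.6%). These lists were not split by gene length, so length was not held in these comparisons. Of all genes of 100 Kb or longer, 90.1% had a limb bud peak and 50.7% an ECC peak.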

How the data were processed

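Anti-Twist1 ChIP DNA was sequenced as single 50-base reads. Mapping to mm9 used Eland v2 and Bowtie, and the authors ran MACS 1.4.2 separately on every sample (p-value limit 1e-05, band width 300 bp). Genomic DNA of FVB/N mice is the control in the methods, whereas the deposited headers list none. The deposited tag counts keep at most 1 tag per position and are not normalized. The deposited p-value is given as 10 times its −log10, and the deposited fold enrichment is a ratio to the local background. For 73 peaks inside a member, the deposited distance at higher coordinates ran from the peak start to the nearest exon start in 73 and at lower coordinates in 67, within 1 bp.

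Genes were assigned by those distances, and gene spans came from GENCODE vM1 on the mm9 genome, which matched 93.7% of the gene names within 50000 bp. Peak sequences, 50-mer copies, overlaps and Wilson or exact Poisson intervals were computed with Python 3.11.15, numpy 2.4.6, pandas 2.3.3, scipy 1.17.1 and numba 0.67.0, likeness between peaks with blastn 2.17.0 and Biopython 1.88, and plots with matplotlib 3.10.9. A match needed 80% identity over 50% of the region. Overlap, assignment and intervals were tested on simulated peaks. With 1 sample per tissue no test was run. Values were named for members with overlapping peaks or peaks in all 3 tissues, the 3 members with most peaks and the 3 peaks of highest fold enrichment per tissue, peaks close to an exon start, and Cd44, and the other members are given in short. The members and lists were chosen with earlier results of these data known, and the measures of repeats, tandem units and likeness, with 4 printed sequences, were added after the lists were seen. Reads and the control library were not analysed here. The sequence of the Lama1 region is not reported here. Alternatives were other cut-offs, distances, overlaps and repeat filters.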

Additional observations from a re-analysis of the deposited data

How the results depend on the processing

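Of 154 recomputed values, 100 stayed close to the first. At a p-value of 1e-10, members with a peak were 6 in ECCs, 12 in limb buds, 3 in PNST cells and 3 in all tissues, member peaks 6, 14 and 3, overlaps 5 between ECCs and limb buds and 3 between limb buds and PNST cells, and the limb bud E-box share 42.9%. With a fold enrichment of 20 or more, 18 limb bud members with 22 peaks, 5 PNST members with 5 peaks and 5 members in all tissues were left. A distance limit of 10000 bp left 16, 52 and 8 member peaks, 6 PNST members and 3 members in all tissues. At the depth-scaled tags of the weakest ECC peak, limb buds kept 3 members with 3 peaks and PNST cells 1 with 1 peak, 1 member in all tissues, 3 overlaps between ECCs and limb buds, and 1 each with PNST cells. The order of the tissues turned there, as ECCs kept 18 members with 25 peaks. With a peak within 1000 bp counted as overlap, 14 limb bud peaks had an ECC and 8 a PNST partner. With only 50 bp on each side of the summit searched, the E-box share was 43.6% for limb bud and 26.7% for PNST peaks. The order against all peaks turned in PNST cells (53.3% against 51.8% in the peak, 26.7% against 39.5% near the summit) and in ECCs (52% against 53%, then 48% against 37.3%).

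Alternatives chosen after seeing the data gave the following. With the summit within 50000 bp of the 5′ end, 15, 70 and 8 member peaks, 4 members in all tissues, 5 overlaps between ECCs and limb buds and 1 between ECCs and PNST cells were counted. With under 50% of 50-mers repeated, 6, 13 and 5 members with 7, 13 and 5 peaks, 3 members in all tissues and 3 overlaps between ECCs and limb buds were counted. Searching the gene body with 50000 bp on either side, or leaving out the Lama1 region, kept every count within 1.5 times. Fewer peaks pass each stricter limit by construction. No paired analysis was possible because each tissue has 1 sample, and no replicate could be left out for the same reason. A filter on repeats marked by the genome was not run because this genome marks none. The weakest listed peak had 1.59 tags per 1000000 filtered tags in ECCs, against 0.537 in limb buds and 0.592 in PNST cells.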
